A study of Mus musculus with 6 samples.

Results

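Calcium pumps and sodium-calcium exchangers were examined here as 10 genes, chosen by name: the endoplasmic reticulum pumps *Atp2a2* and *Atp2a3*, the plasma membrane pumps *Atp2b1*, *Atp2b2*, *Atp2b3* and *Atp2b4*, the exchangers *Slc8a1*, *Slc8a2* and *Slc8a3*, and the potassium-dependent exchanger *Slc24a2*. All 10 were among the 32286 genes of the count tables. They were chosen with earlier results of these data known. Nuclei came from whole cerebella of 3 *Pcp2-ATXN1[82Q]* mice (SCA1 below) and 3 wild-type (WT) C57Bl6 littermates, all 12 weeks of age. The SCA1 line had been backcrossed to C57BL/6. In the SCA1 mice a human *ATXN1* transgene with a lengthened CAG tract is driven by the promoter of *Pcp2*, a gene of Purkinje cells (PCs), so the model is one of PC expression and not of expression in every cell. Each mouse gave 1 library of single nuclei RNA, with transcripts counted once each by their unique molecular identifier (UMI). Reads on introns were counted together with those on exons.

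A neuron lets calcium in through channels and has to remove it again. Endoplasmic reticulum pumps (SERCA, the *Atp2a* genes) use ATP to move calcium into the internal store. Plasma membrane pumps (PMCA, the *Atp2b* genes) use ATP to move it out of the cell with high affinity and low capacity. Sodium-calcium exchangers (NCX, the *Slc8a* genes) move it out at the cost of the sodium gradient, with lower affinity and higher capacity, and *Slc24a2* (NCKX2) uses the potassium gradient as well. PCs are known for large calcium signals in their dendrites and for a high content of calcium-binding proteins, and *Atp2b2* is known for the ataxia that its loss gives in mice.

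The promoter windows of *Atp2a3*, the pump whose RNA was most restricted to PCs, and of *Slc24a2*, which was highest in oligodendrocytes, are shown because their RNA had the steepest differences between cell types. Each window is the 250 bases before a gene start in RefSeq (GRCm38.p6), at chr11:72960919-72961168 on the forward strand and chr4:87230541-87230790 on the reverse strand, the latter being the more upstream of 2 listed starts. Capitals mark GGGCGG or its reverse complement, the core of a GC box.
Atp2a3: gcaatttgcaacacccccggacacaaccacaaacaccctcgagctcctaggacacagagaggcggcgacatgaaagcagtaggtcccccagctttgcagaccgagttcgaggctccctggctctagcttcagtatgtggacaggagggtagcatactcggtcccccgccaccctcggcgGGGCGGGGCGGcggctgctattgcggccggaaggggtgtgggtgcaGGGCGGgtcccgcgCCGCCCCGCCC
Slc24a2: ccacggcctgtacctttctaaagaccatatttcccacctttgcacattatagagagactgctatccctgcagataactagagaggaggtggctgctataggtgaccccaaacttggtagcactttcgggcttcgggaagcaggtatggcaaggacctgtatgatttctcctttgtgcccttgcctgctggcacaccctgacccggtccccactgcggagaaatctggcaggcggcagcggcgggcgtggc
The *Atp2a3* window held 5 matches on both strands together, some overlapping, and the *Slc24a2* window 0. RefSeq's table gave 12 windows for 8 of the 10 genes (*Atp2a2* and *Atp2b3* were not matched), and 6 of these 12 held GGGCGG, in *Atp2a3*, *Atp2b1*, *Atp2b2* and *Slc8a2*, beside 32.7% of all 32851 windows. The letters AGGTCA, a motif bound by nuclear receptors, were in 0 of the 12 windows and in 14.0% of all. TGAATGAA, a form of the octamer bound by Capicua, the partner of ATXN1, was in 0 of the 12 and in 1.08% of all. Some genes have several windows, and a match is a description of the letters only. GC made up 66.8% of the *Atp2a3* window and 56.0% of the *Slc24a2* window.

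The libraries held 3354 to 10897 nuclei and 18916647 to 98366627 UMIs, and WT mouse 2 was the shallowest, with a median of 2246.5 UMIs per nucleus. Pairs of libraries shared 7 to 44 barcodes. Cell types are the deposited SingleR labels, and 16 labels with at least 80 nuclei are described: PCs (292 nuclei), granule neurons (37532), Bergmann glia (BG, 1243), velate astrocytes (VA, 1014), oligodendrocytes (OL, 1384), microglia (125) and 10 others, of 83 to 1224 nuclei each. The authors assigned a type only where label and cluster agreed, which was not required here. The label was the most frequent one of its cluster for 273 of 292 PC nuclei. This held for 0 of 458 Rab3b, 38 of 263 Chrm2, 115 of 240 Lgi2 and 41 of 83 choroid plexus nuclei, so these labels are less sure. Markers fitted most labels. Nefh and Rab3b interneurons held *Sorcs3* at 1947 and 1639 counts per 1000000 UMIs (CPM), Cadm1 interneurons *Nxph1* at 4653 CPM, Lgi2 neurons *Slc6a5* at 124 CPM and Sln neurons *Lmx1a* at 485 CPM. The label of an endothelial tip type went against its name, with *Cldn5* at 1.0 CPM and *Dcn* at 413 CPM, and is called Dcn/Nnat nuclei. The choroid plexus label also held the ependymal gene *Foxj1* at 118 CPM and the endothelial label the mural gene *Rgs5* at 1456 CPM. RNA of PCs was found in every label. The summed level of 5 PC markers (*Pcp2*, *Car8*, *Ppp1r17*, *Skor2*, *Calb1*) was 3414 to 5126 CPM in PCs, and 157 to 775 CPM in granule neurons of SCA1 mice and 318 to 1419 CPM in those of WT mice. *Skor2*, a transcription factor of PCs, was close to 0 outside PCs, with 101 UMIs in all granule neurons, 6 in BG and 1 in OL. Human *ATXN1* had a UMI in 10 of 65, 10 of 52 and 11 of 29 PC nuclei of SCA1 mice 1, 2 and 3. In WT it had none in 146 PC nuclei, which allows a share of nuclei with a UMI of up to 2.05% by counting error alone, with the nuclei of 3 mice pooled.

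*Atp2a2* (chromosome 5, 122453513 to 122502225, GRCm38), the widely used endoplasmic reticulum pump, was detected in every label and was highest in PCs. In WT mice 1, 2 and 3 it stood at 932, 1333 and 959 CPM in PCs, a mean of 1075 ± 224 CPM (SD, n = 3). PCs held the highest level of the 16 labels in 6 of 6 mice. Choroid plexus nuclei followed at 480.5 ± 25.5 CPM and were above the next label, VA (346 ± 95.7 CPM), by more than the larger SD. The 13 other neighbouring pairs in the order, down to Nrgn neurons at 244 ± 97.7 CPM, lay within the larger SD of each other. Granule neurons held 301 ± 95.0 CPM and BG 277 ± 101 CPM. In granule neurons WT mouse 1 stood at 410 CPM against 257 and 237 CPM in the other two, and its PC marker RNA there was also the highest.

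*Atp2a3* (chromosome 11, 72961169 to 72993044), the third reticulum pump gene, which is known from blood cells and PCs, was close to restricted to PCs. Its level in PCs was 297, 310 and 198 CPM in WT mice 1, 2 and 3, or 268 ± 60.9 CPM. The endothelial label came next at 34.3 ± 33.9 CPM, with values from 0 to 67.8 CPM, and PCs were 7.82 times higher, or 4.81 to 17.2 times with 1 WT mouse left out (17.2 without WT mouse 3, 4.81 without WT mouse 2). Chrm2 interneurons were lowest at 1.5 ± 2.7 CPM, a level that rests on WT mouse 1. In granule neurons the level was 9.4 ± 8.8 CPM (4.37 CPM without WT mouse 1), and the median over the 6 mice of the ratio to PCs was 0.0213. The same ratio was 0.342 for *Pcp2*, 0.175 for *Calb1*, 0.121 for *Ppp1r17*, 0.0771 for *Car8* and 0.00474 for *Skor2*. The granule to PC ratio of *Atp2a3* thus lay below those of 4 of the 5 PC markers, and the part of PC RNA in its level there was not tested. *Atp2a2* had a ratio of 0.288 and *Atp2b2* of 0.314 in granule neurons, below that of *Pcp2* and above those of the other markers. *Slc24a2* had 0.156, below *Pcp2* and *Calb1* and above the other markers. *Slc8a1*, *Atp2b1*, *Atp2b3*, *Slc8a2* and *Slc8a3* had ratios above 1, from 1.66 for *Slc8a1* to 40.0 for *Slc8a2*, while each of the markers was below 1.

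The plasma membrane pumps had different orders over the cell types. *Atp2b2* (chromosome 6, 113743831 to 114042613), the fast PMCA2, was highest in PCs in 6 of 6 mice, at 1470, 2023 and 2104 CPM in WT mice 1, 2 and 3. The mean was 1866 ± 345 CPM, 3.20 times that of Sln neurons (584 ± 70.6 CPM). Granule neurons held 565 ± 35.0 CPM, and the lowest were Dcn/Nnat nuclei at 120 ± 109 CPM. *Atp2b1* (chromosome 10, 98914406 to 99026143), the widespread PMCA1, differed from it in PCs. Its lowest level of the 16 labels was in PCs, at 78.1, 53.0 and 75.4 CPM (68.8 ± 13.7 CPM), and the next lowest, BG at 151 ± 42.0 CPM, was above PCs in 6 of 6 mice. Cadm1 interneurons had the highest mean and were highest in 4 of 6 mice, at 768 ± 110 CPM, 11.2 times the PC level, followed by Nefh interneurons at 580 ± 91.1 CPM in the same order in 6 of 6 mice. Microglia held 522 ± 323 CPM.

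*Atp2b3* (chromosome X, 73503086 to 73571005), the neuronal PMCA3, stood at 287, 250.5 and 219.5 CPM in granule neurons of WT mice 1, 2 and 3 (252 ± 33.8 CPM). Choroid plexus nuclei had a mean of 239 CPM with a spread of 222 CPM, from 28.8 CPM in WT mouse 1 to 471 CPM in WT mouse 3, so these 2 labels do not differ beyond their spread. In PCs it was 15.6 ± 12.5 CPM, and 8.69 CPM without WT mouse 1. *Atp2b4* (chromosome 1, 133699457 to 133801041), PMCA4, was low throughout, with 1.7 ± 1.7 CPM in PCs (0.898 without WT mouse 1, 2.59 without WT mouse 2). Its highest levels were 116 ± 63.0 CPM in choroid plexus nuclei and 58.9 ± 2.0 CPM in Nrgn neurons. Nrgn neurons were above Dcn/Nnat nuclei, next in the order at 31.5 ± 3.0 CPM, in each WT mouse but in 4 of all 6 mice.

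Levels of different genes were set side by side per length, here CPM per 1000 bases of gene (kb), since long genes can give more intronic reads. Whether UMIs rise in proportion to length was not tested, and the order of genes depends on this division. In CPM alone *Atp2b2* stood above *Atp2b3* in granule neurons and above *Atp2a2* in PCs. Per kb, *Atp2b2* made up 87.4 ± 6.0% of the 4 plasma membrane pump genes in WT PCs, and 77.9 to 92.5% over the 6 mice. In granule neurons the share of *Atp2b2* was 21.2 ± 0.4%, below *Atp2b3* at 41.4 ± 2.6% and *Atp2b1* at 34.4 ± 2.3%. In Cadm1 interneurons *Atp2b1* had 67.6 ± 7.1%. SCA1 mice had an *Atp2b2* share of 81.5 ± 5.4% in PCs, and the WT mice ranged from 80.9 to 92.5%. Of the 2 reticulum pumps, *Atp2a3* made up 27.6 ± 4.5% in WT PCs and 29.0 ± 4.0% in SCA1 PCs, and 4.0 ± 2.4% in WT granule neurons. *Atp2a2* was the highest of the 10 genes per kb in PCs, at 22.1 CPM per kb, beside 8.41 for *Atp2a3* and 6.24 for *Atp2b2*.

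**Figure D1:**
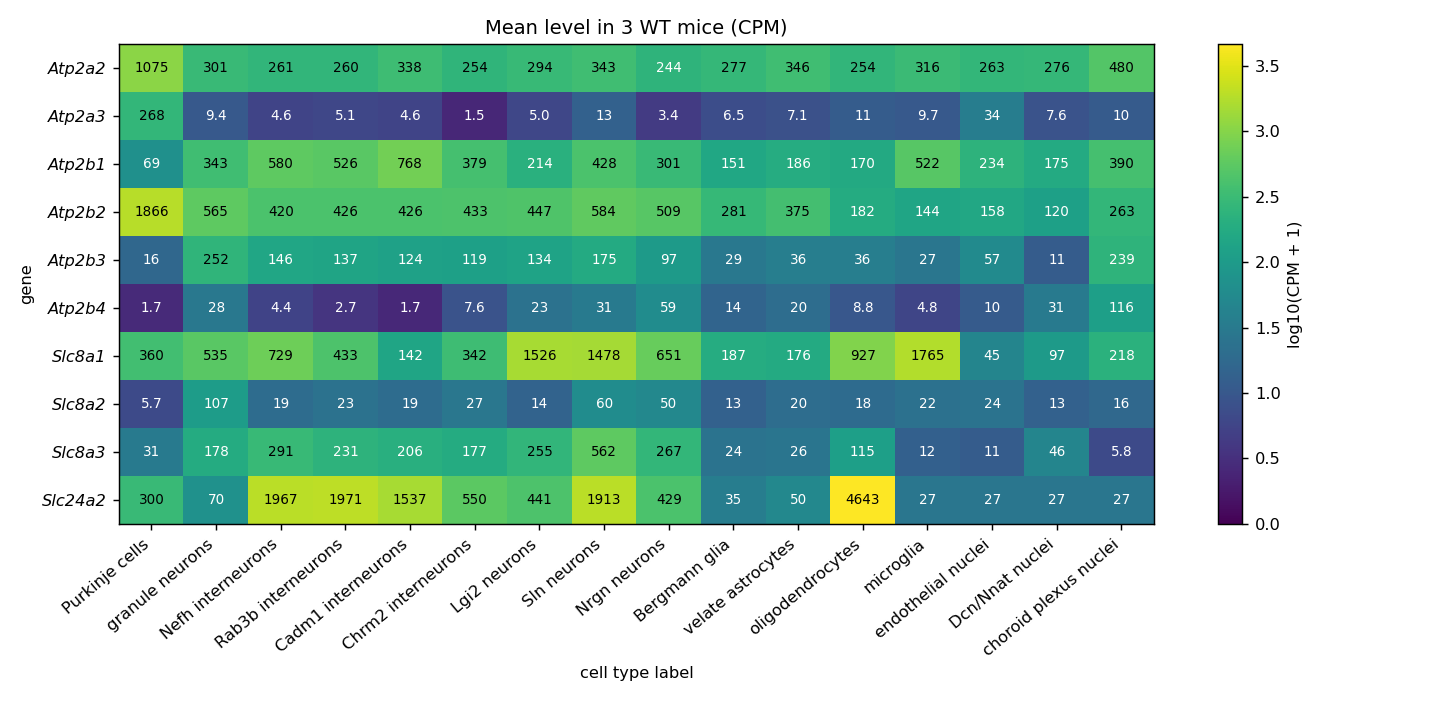
Mean level of the 10 genes (rows) in 16 cell type labels (columns) of the 3 WT mice, in CPM as printed, with colour on the log10(CPM + 1) scale. *Atp2a2*, *Atp2a3* and *Atp2b2* are highest in PCs, where *Atp2b1* is lowest, and *Slc24a2* is highest in OL at 4643 CPM.

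None of the exchangers was highest in PCs. *Slc8a1* (chromosome 17, 81373105 to 81738377), NCX1, was highest in microglia, at 1503, 2321 and 1470 CPM in WT mice 1, 2 and 3 (1765 ± 482 CPM), which rest on 125 nuclei of all mice. Lgi2 neurons (1526 ± 443 CPM) and Sln neurons (1478 ± 446 CPM) followed within the spread. OL held 927 ± 292 CPM and granule neurons 535 ± 109 CPM. PCs held 314, 350 and 417 CPM (360.5 ± 52.3 CPM), and Cadm1 interneurons 142 ± 38.8 CPM. *Slc8a2* (chromosome 7, 16129826 to 16161063), NCX2, was highest in granule neurons in 6 of 6 mice, at 107 ± 9.5 CPM, 1.78 times Sln neurons and 18.7 times PCs, its lowest label at 5.7 ± 5.5 CPM. That PC level rests on WT mouse 1, without which it was 2.55 CPM and the ratio 39.9. *Slc8a3* (chromosome 12, 81197915 to 81333180), NCX3, was highest in Sln neurons in 6 of 6 mice. The values there were 336, 404 and 947 CPM in WT mice 1, 2 and 3, a mean of 562 ± 335 CPM, and 370 CPM without WT mouse 3. Nefh interneurons came next at 291 ± 109 CPM, and PCs held 30.6 ± 15.5 CPM. Per kb, *Slc8a2* made up 55.6 ± 8.6% of the 3 exchanger genes in WT granule neurons and *Slc8a1* 71.2 ± 10.0% in WT PCs. In CPM alone *Slc8a1* stood above *Slc8a2* in granule neurons as well. The reads of *Slc8a3* could not be told from those of *Gm3693*, nor those of *Atp2b2* and *Slc8a1* from *Gm15083* and *Gm11096*, on the opposite strand, if the counting did not use strand, and *Atp2b2* also overlaps *Gm44167* on its own strand.

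**Figure D2:**
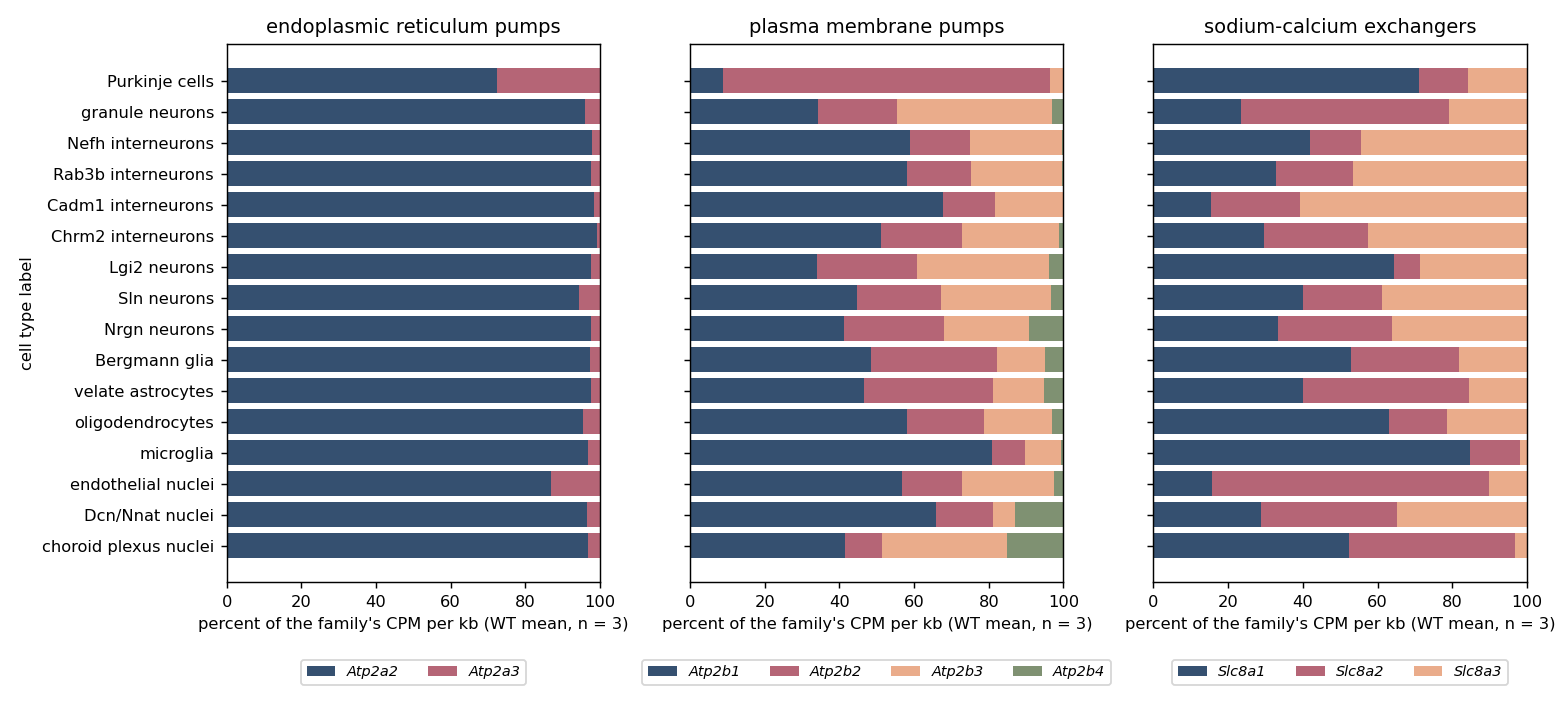
Share of each gene in its family's summed CPM per kb (x axis, percent) for 16 cell type labels (y axis), as means of 3 WT mice. *Atp2b2* fills 87.4% of the plasma membrane pump bar in PCs and 21.2% in granule neurons.

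*Slc24a2* (chromosome 4, 86983124 to 87230477) had the widest range of the exchangers. In OL it stood at 3712, 4327 and 5891 CPM in WT mice 1, 2 and 3, a mean of 4643 ± 1124 CPM, and it was highest there in 6 of 6 mice. Rab3b, Nefh and Sln neurons were next at 1971 ± 325, 1967 ± 304 and 1913 ± 198 CPM and did not differ beyond their spread. Cadm1 interneurons held 1537 ± 395 CPM, and were apart from Chrm2 interneurons at 550 ± 120 CPM in 6 of 6 mice. PCs held 300.1 ± 18.7 CPM, above granule neurons at 70.4 ± 44.4 CPM in every mouse. Dcn/Nnat, choroid plexus, microglia and endothelial nuclei shared the lowest place, with WT means of 26.6 to 26.8 CPM that rest on few UMIs. Microglia held 79.9, 0 and 0 CPM in WT mice 1, 2 and 3, and endothelial nuclei 26.4, 53.5 and 0 CPM. In SCA1 mice 1, 2 and 3 the endothelial values were 149, 251 and 0 CPM. A UMI of *Slc24a2* was found in 95.7 ± 1.8% of WT OL nuclei and in 94.3 ± 2.1% when each nucleus was thinned to 3000 UMIs, for which 140 of 1384 nuclei were too shallow. Granule neurons, whose median depth of 5923 UMIs is close to the 6453 UMIs of OL, had a thinned share of 14.2 ± 9.1%.

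The OL label also held RNA of precursors, and a split of its nuclei was added after the data had been seen. *Mog*, a late myelin gene, had a UMI in 1219 nuclei without one of *Pdgfra*, the receptor that marks precursors, and 61 nuclei had the reverse. *Slc24a2* stood at 4055 to 7221 CPM over the 6 mice in the *Mog* nuclei (5313 ± 1382 CPM) and at 0 to 168 CPM in the *Pdgfra* nuclei (66.8 ± 78.0 CPM), although the latter were deeper, with a median of 10208 against 6457 UMIs. No mouse overlapped between these 2 sets of nuclei. The separate precursor label (polydendrocytes, 12 nuclei) held 464 CPM of *Slc24a2* when pooled, above the *Pdgfra* nuclei. *Slc8a1* was also higher in *Mog* nuclei of every mouse, at 981 ± 359 against 449 ± 128 CPM. *Atp2b1* was 173 ± 12.4 and 162 ± 90.7 CPM, and *Atp2a2* 220 ± 92.1 and 214 ± 80.3 CPM. Each mouse gave 4 to 17 *Pdgfra* nuclei, and no test was made, since the labels and the split use the same RNA.

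**Figure D3:**
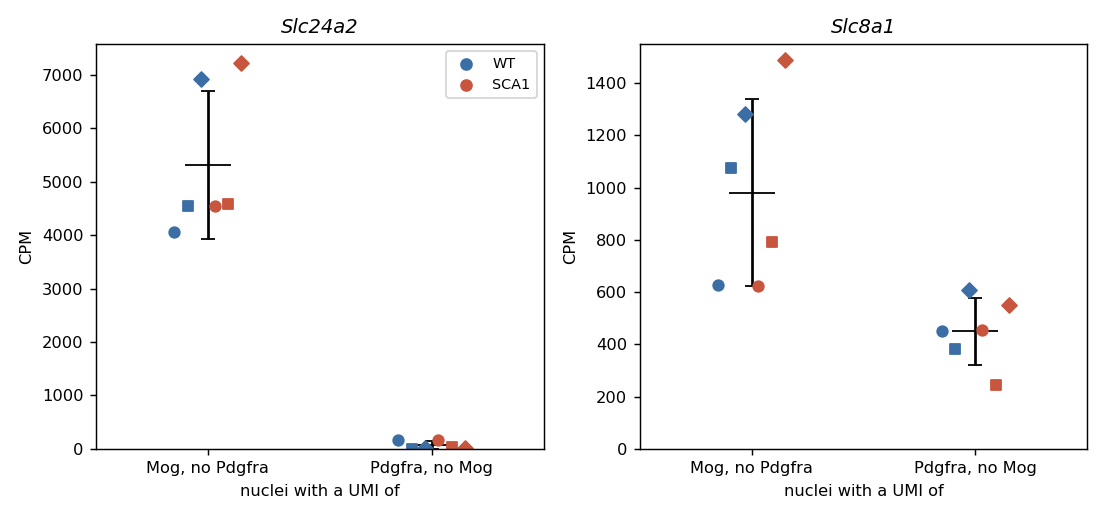
Level in CPM (y axis) of *Slc24a2* and *Slc8a1* in nuclei of the OL label with a UMI of *Mog* and none of *Pdgfra*, or the reverse, with 1 point per mouse (circle, square, diamond for replicates 1, 2, 3) and the mean ± SD of 6 mice. *Slc24a2* lies at 4055 CPM or above in the first and at 168 CPM or below in the second.

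In the order over cell types, the 10 genes had few close partners among themselves. Over the 13 labels with at least 10 nuclei in each mouse, the log2(CPM + 1) values of *Atp2a2* and *Atp2a3* had a Pearson's r of 0.92, *Atp2b3* and *Slc8a3* 0.85, *Atp2b1* and *Atp2b3* 0.78, and *Atp2a3* and *Atp2b1* -0.65. Among all genes that reached 20 CPM in a label, the 3 most like *Atp2a3* were *Pkp3*, *Car8* and *Gm14033* (r of 0.97 each), and those most like *Atp2a2* were *Csta1*, *Gm28876* and *Skor2* (0.94 to 0.95). For *Atp2b2* they were *Gm15083*, which overlaps it, the PC calcium channel gene *Cacna1a* and the GABA receptor gene *Gabbr2* (0.94 to 0.97). *Rph3a* led for *Atp2b1* (0.97), *Srrm4* for *Atp2b3* (0.98) and *Phlpp2* for *Atp2b4* (0.89). For the exchangers it was *St3gal3* for *Slc8a1* (0.86), *Rbfox3* for *Slc8a2* (0.94), the overlapping *Gm3693* for *Slc8a3* (0.97) and *Dusp15* for *Slc24a2* (0.96). The labels share libraries, and the values are descriptions over 13 points.

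The genotypes were compared on UMIs summed per mouse and label, with edgeR's quasi-likelihood test, genotype and the range of the library number as terms, and p-values adjusted by Benjamini and Hochberg over every gene tested in a label, with 0.05 as the threshold. No gene of the 10 passed it in any of 13 labels, that is in 0 of 106 tests of a gene in a label, and 5 of the 106 had an unadjusted p under 0.05. DESeq2 and limma-trend on the same sums called 0 of the 106 as well. Over all genes, the same threshold called 0.00566% in granule neurons, 0.00917% in OL and 0% in each of the other 11 labels, PCs included. In PCs 653 of 9821 genes had an unadjusted p under 0.05, which is 6.65%. The values that follow are descriptions of differences that did not pass the test, which does not show that the groups were alike. Scaled CPM use TMM factors and a library size summed over the genes that passed the low-count filter. Values given as CPM alone, or without the TMM factors, are not scaled and use the UMIs of all genes.

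In PCs, 8 of the 10 genes passed the filter on low counts (*Atp2b4* and *Slc8a2* did not). The log2 fold change of SCA1 against WT was below 0 for 6 of the 8, beside 47.4% of all genes, with a median of -0.44 beside 0.02 over all genes. An unadjusted p under 0.05 with SCA1 lower was found for 4 of the 8, beside 4.31% of all genes. The 3 SCA1 mice lay below all WT mice for 3 of the 8, beside 5.1% of all genes, and for 2 of the 8 on CPM without the TMM factors, beside 2.57%. The genes were chosen with earlier results of these data known. Both reticulum pump genes are among those that the paper reports as lowered in PCs. The excess over all genes is therefore partly set by the choice, and it does not test the genes as a group.

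*Atp2a2* stood at 617, 664 and 815 scaled CPM in PCs of SCA1 mice 1, 2 and 3 and at 929, 1456 and 1123 in WT mice 1, 2 and 3. All SCA1 mice were below all WT mice. The log2 fold change was -0.73 (SE 0.23, adjusted p = 0.434). *Atp2a3* had 193, 186 and 174 scaled CPM in SCA1 and 295, 338 and 232 in WT, without overlap on this scale, and the difference was -0.65 on the log2 scale (SE 0.21, adjusted p = 0.458). Without the TMM factors SCA1 mouse 1 (217 CPM) lay above WT mouse 3 (198 CPM). Among the plasma membrane pumps, *Atp2b2* had 1126, 1240 and 1549 scaled CPM in SCA1 and 1465, 2209 and 2463 in WT. WT mouse 1 lay below SCA1 mouse 3, so the groups overlapped, and the log2 fold change was -0.62 (SE 0.24, adjusted p = 0.613). *Atp2b1* was 73.3, 78.6 and 57.5 against 77.8, 57.9 and 88.3 scaled CPM, with a log2 fold change of -0.11 that turned to 0.089 with library size only. *Atp2b3*, at 26.4, 26.2 and 12.4 against 29.2, 5.3 and 14.7 scaled CPM, had a log2 fold change of 0.38 (SE 0.42), which was 0.88 without SCA1 mouse 1 and 0.025 without SCA1 mouse 2.

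Of the exchangers in PCs, *Slc8a1* stood at 236, 246 and 307 scaled CPM in SCA1 and 313, 382 and 489 in WT. The groups did not overlap, with SCA1 mouse 3 just below WT mouse 1, and the log2 fold change was -0.57 (SE 0.21, adjusted p = 0.559). *Slc8a3* was 19.7, 25.3 and 36.7 against 22.7, 22.4 and 56.7 scaled CPM, a log2 fold change of -0.30 (SE 0.34) that turned to 0.13 without WT mouse 3 and to 0.15 on single nuclei. *Slc24a2* was 324, 326 and 455 against 285, 320 and 376 scaled CPM, a log2 fold change of 0.17 (SE 0.21). With library size only it was 0.36, or 0.15 relative to the median of all genes. The adjusted p of *Atp2b1*, *Atp2b3*, *Slc8a3* and *Slc24a2* was 0.999 in edgeR's test with TMM scaling.

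**Figure D4:**
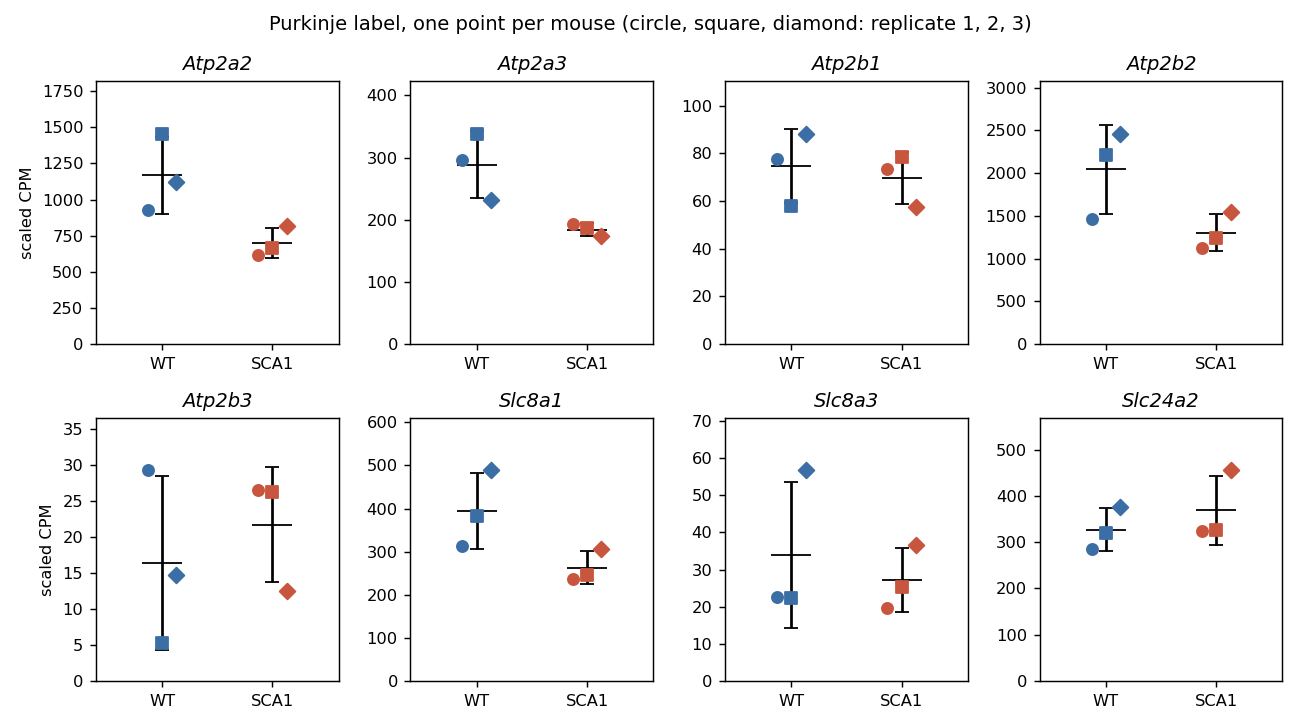
Scaled CPM (y axis, starting at 0) of 8 genes in PCs of each WT and SCA1 mouse, with the mean ± SD (n = 3) and circle, square and diamond for replicates 1, 2 and 3. For *Atp2a2*, *Atp2a3* and *Slc8a1* every SCA1 mouse lies below every WT mouse on this scale, and no gene passed the test.

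Library numbers fell into 2 ranges. The first holds 1 mouse of each genotype, numbered 1, and the second the 4 others, so that within-range values rest on 1 mouse against 1 and 2 against 2. The log2 ratio in PCs was -0.59 and -0.80 in the first and second range for *Atp2a2*, -0.61 and -0.67 for *Atp2a3*, -0.38 and -0.74 for *Atp2b2*, and -0.41 and -0.65 for *Slc8a1*. For *Atp2b3* it was -0.14 and 0.95. The summed PC markers moved in the same direction in PCs, from 4629 to 5126 CPM in WT to 3414 to 4019 CPM in SCA1, with *Car8* at a log2 fold change of -0.66 and *Skor2* at -0.07. The part of the marker difference in that of the pumps was not tested.

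Thinned to 3000 UMIs per nucleus, with 12 of 292 PC nuclei left out, a UMI of *Atp2a2* was expected in 89.2 ± 4.7% of WT and 78.3 ± 7.8% of SCA1 PC nuclei. Unthinned, the shares were 94.8 ± 3.4% and 95.5 ± 7.8%. *Atp2a3* was at 53.7 ± 7.8% in WT and 38.9 ± 4.7% in SCA1 thinned, but at 84.8 ± 6.6% and 87.6 ± 17.7% unthinned, and thinned it was at 2.9 ± 3.0% in WT granule neurons. *Atp2b2* was at 93.7 ± 4.8% and 92.6 ± 5.3%, close to the upper limit of what a share can show. *Slc24a2* was at 50.5 ± 1.7% in WT and 58.7 ± 8.9% in SCA1.

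In SCA1 PCs, nuclei with a UMI of human *ATXN1* were set beside those without one. *Atp2a3* was at 227, 131 and 127 CPM with and 215, 227 and 195 CPM without it in SCA1 mice 1, 2 and 3. *Atp2a2* was at 817, 608 and 552 CPM with and 668, 746 and 942 CPM without it. Both genes were lower with the transgene's UMI in mice 2 and 3 and higher in mouse 1. *Atp2b2* was lower with it in each of the 3 mice (1198 ± 37.2 against 1442 ± 221 CPM), as was *Slc8a1* (220 ± 75.4 against 299 ± 27.3 CPM). The nuclei with a UMI number 10, 10 and 11, and in mouse 2 their median depth was 34274.5 UMIs against 7287.5 in those without, and a nucleus without a UMI may still express the transgene, so no test was made.

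Among the genes tested in all 13 labels, PCs included, *Atp2a2* and *Atp2b2* had the most uniform signs. The labels share mice and libraries, so their signs are not separate observations. The log2 fold change of *Atp2a2* was below 0 in 13 of 13 labels, from -0.73 in PCs to -0.05 in Chrm2 interneurons, where it turned to 0.029 without SCA1 mouse 3. That of *Atp2b2* was below 0 in 12 of 13, with the exception of Chrm2 interneurons at 0.22. In granule neurons *Atp2a2* had a log2 fold change of -0.33 (SE 0.19), and within the 2 ranges of library numbers -0.48 and -0.26. The glial values were -0.27 (BG), -0.35 (VA) and -0.48 (OL). From a test on nuclei, the paper reports lower *Atp2a2* in these glia as well as in PCs. It also reports lower *Atp2a3* and *Atp2b2* in OL. The choice of the genes thus bears on the glial values as well. In Lgi2 neurons, at -0.53, the SCA1 mice held 240, 177 and 212 and the WT mice 273, 323 and 323 scaled CPM, without overlap (1 of 8 genes, beside 2.87% of all genes). The unadjusted p there was under 0.05, beside 0.76% of all genes with such a p and SCA1 lower. In OL, *Atp2a2* stood at 242, 142 and 161 scaled CPM in SCA1 and 370, 200 and 203 in WT, where SCA1 mouse 1 was above WT mice 2 and 3. As groups, SCA1 mice also had lower PC markers in each label where these were tested. *Car8*, *Calb1* and *Pcp2* had a log2 fold change below 0 in 13 of 13 labels, with medians of -0.66, -0.61 and -0.38, *Ppp1r17* in 8 of 8 and *Skor2* in 2 of 2. In each label outside PCs, WT mouse 1 held the most PC marker RNA, and SCA1 mouse 3 the least. Among the WT mice, mouse 1 had the highest *Atp2a2* in granule neurons and OL and the lowest in Lgi2 neurons. The Lgi2 label held 66, 29 and 12 nuclei of WT mice 1, 2 and 3. The part of PC RNA in the values of *Atp2a2* and *Atp2b2* in other labels was not tested.

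**Figure D5:**
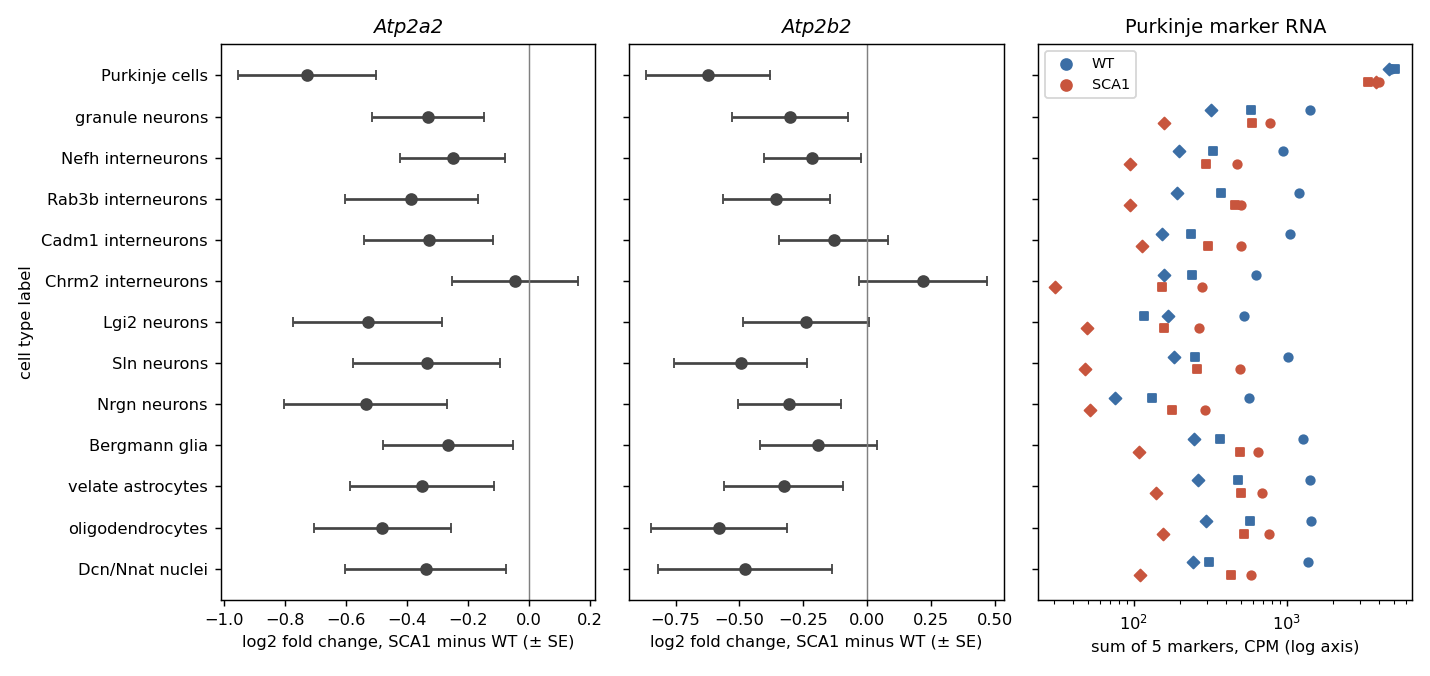
Log2 fold change of SCA1 against WT with its SE (x axis) for *Atp2a2* and *Atp2b2* in 13 labels (y axis), and at right the summed level of 5 PC markers in each mouse (CPM, log axis; WT blue, SCA1 red; circle, square, diamond for replicates 1, 2, 3). *Atp2a2* is below 0 in each label, and outside PCs the marker RNA is highest in WT mouse 1 and lowest in SCA1 mouse 3.

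In granule neurons, where each of the 10 genes could be tested, 10 of 10 log2 fold changes were below 0, beside 50.5% of all genes, with a median of -0.15. They ranged down to -0.83 for *Atp2a3* (SE 0.35). The summed PC markers in granule neurons had means of 773 CPM in WT and 509 CPM in SCA1, and their part in these values was not tested. In the first range of library numbers *Slc8a3* was at 0.19 and *Slc8a1* at 0.01. SCA1 mice were below all WT mice for *Atp2b2*, at 482, 386 and 525 against 551, 564 and 601 scaled CPM, and for *Atp2b4*, at 27.0, 21.3 and 26.5 against 28.1, 28.4 and 28.3, which is 2 of 10 beside 1.7% of all genes. Without the TMM factors *Atp2b4* overlapped. In Nrgn neurons 3 of 9 genes (*Atp2b2*, *Atp2b4*, *Slc8a2*) had that order, beside 2.74%. In Chrm2 interneurons it was 2 of 8 (*Atp2b1* at a log2 fold change of -0.28 and *Slc8a2* at -0.71), beside 2.94%, and in Sln neurons 1 of 7 (*Atp2b2* at -0.50), beside 3.61%. In VA *Atp2b2* was below in each SCA1 mouse (1 of 9 genes, beside 2.46%, with overlap when the TMM factors were left out) and *Slc8a3* above (1 of 9, beside 2.11%), the latter at a log2 fold change of 0.45. In Dcn/Nnat nuclei *Atp2b4* was above in each SCA1 mouse (1 of 6, beside 2.89%), at 41.7, 44.1 and 63.4 against 31.2, 35.2 and 35.5 scaled CPM. Over all 13 labels 70 of 106 log2 fold changes were below 0. In BG it was 3 of 9, with a median of 0.08, and in Chrm2 interneurons 3 of 8, with a median of 0.10.

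Whether PCs and granule neurons of the same mice differ in the change was tested as an interaction with mouse as a block. None of the 10 genes passed, and neither did any of the 16043 genes (0%), with 4.64% at an unadjusted p under 0.05. The difference, PCs minus granule neurons, was -0.54 (SE 0.21) for *Slc8a1*, -0.45 (SE 0.35) for *Atp2a2*, -0.36 (SE 0.27) for *Atp2b2* and 0.23 (SE 0.63) for *Atp2a3*. Without WT mouse 2 it was -0.071 for *Atp2a2*, and without WT mouse 3 -0.18 for *Atp2b2*. For *Atp2a3* it turned to -0.46 without WT mouse 1 and to -0.33 without SCA1 mouse 3. Lower values of these pumps in PCs were thus not shown to be particular to PCs.

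The surrounding calcium machinery was read from 7 lists with 46 genes in all, of which 36 were tested in PCs. None passed the test in any label. The lists, too, were chosen with earlier results of these data known, so their medians beside all genes are descriptions only. The cytosolic buffers stood lowest in PCs, with a median log2 fold change of -0.60 over 4 genes beside 0.02 for all genes. *Pcp4*, a calmodulin-binding protein of PCs, was at 360, 427 and 403 scaled CPM in SCA1 and 619, 875 and 670 in WT without overlap (log2 fold change -0.86, SE 0.21, adjusted p = 0.233). Of the 4 genes, 2 had every SCA1 mouse below every WT mouse, beside 5.1% of all genes. *Pvalb* was at -0.79 and *Calb1*, calbindin, at -0.40, while *Calb2* was at 0.24 with overlap. Of 7 mitochondrial uptake genes tested 2 were below 0, with a median of 0.02. *Mcur1*, a regulator of the uniporter, had an unadjusted p under 0.05 with SCA1 lower (1 of the 7, beside 4.31% of all genes). Its log2 fold change was -0.91. The level was low, at 6.9 ± 1.1 scaled CPM in SCA1 against 13.5 ± 3.9 in WT. The medians were -0.13 for 5 pump regulators and partners (*Calm2* had the smallest p among them), 0.02 for 3 other pumps and exchangers (*Atp2c1*), -0.09 for 6 store refill genes (*Stim2*), 0.01 for 5 calcium-binding genes of the reticulum (*Casq2*) and -0.06 for 6 sodium pump subunits, with no unadjusted p under 0.05 in any of these 5 lists. In granule neurons the list of buffers had a median of -0.40 over 4 genes, and these include PC markers.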

How the data were processed

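Single nuclei RNA was measured in 6 cerebella, 3 SCA1 and 3 WT, with 1 library per mouse. The authors deposited UMI counts per gene and nucleus as whole numbers without normalization. Reads were aligned by CellRanger to mm10 plus a human *ATXN1* locus (the submitters' processing notes list versions 4.0.0, 5.0.1 and 6.0.1), with introns counted. Debris was removed by DIEM, nuclei were clustered in Seurat 4.0.4 and labelled by SingleR against DropViz. A cluster number and a label were deposited per nucleus. DIEM's minimum was higher for the libraries of the first run, which the text used here does not name. They were inferred from the library numbers in the sample labels.

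Counts were summed per mouse and label. A label was tested with at least 10 nuclei in each mouse, using edgeR 4.0.16 (R 4.3.3), TMM scaling and the filterByExpr defaults (10 counts, 15 in total). SE is the log2 fold change over the root of F. Levels across cell types are CPM of the sums without scaling, with the SD over mice. Differences between labels were described and not tested, because labels were assigned from the same RNA. Alternatives changed the tool (DESeq2 1.42.0, or limma-trend 3.58.1 with a prior count of 2), the scaling (RLE, or library size only), the low-count filter, the terms (without batch, or a replicate block), and the nuclei (3000 UMIs or more, or those whose label is also their cluster's most frequent one). Each mouse was left out in turn, the PC minus granule difference was also fitted in the second range of library numbers alone, and a further fit used limma-trend on single nuclei with scran 1.30.0. Shares after thinning are hypergeometric expectations. Intervals and floors cover counting error only. Gene positions are from GENCODE vM21 (GRCm38), matched by symbol, with 10 of 10 found. The fits were tested on simulated data first. No doublet caller was run here.

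The 10 genes and the 7 lists were chosen with earlier results of these data known. All 10 are named, and from the lists those with the smallest p in PCs (1 of these is not reported here), with *Pvalb*, *Calb1* and *Calb2* added to complete the buffers. The sample labels name separate mice.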

Additional observations from a re-analysis of the deposited data

Results flagged for a closer look

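*Atp2b4* had every SCA1 mouse above every WT mouse in one cell type and every one below in others. The log2 fold change was 0.54 in Dcn/Nnat nuclei (1 of 6 genes tested there, beside 2.89% of all genes with SCA1 above), -0.18 in granule neurons and -0.47 in Nrgn neurons, with adjusted p of 1.00, 1.00 and 1.00 by edgeR's quasi-likelihood test. In granule neurons the groups overlapped without the TMM factors, where SCA1 mouse 1 (29.13 CPM) was above WT mouse 2 (29.10 CPM). The difference between the cell types was not tested.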

How the results depend on the processing

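None of the 10 genes was called in any label under DESeq2, RLE factors, library size only, no filter, limma-trend on sums, deeper nuclei, no batch term, or with any mouse left out. None was called where label and cluster agree either, but that fit needed 10 such nuclei in each mouse. Rab3b, Chrm2, Nrgn, Lgi2, Sln and Dcn/Nnat nuclei had a mouse with fewer and were not fitted in that setting. In the PC minus granule difference none was called either with the second range of library numbers alone, library size only, no filter, agreement of label and cluster, or any mouse left out. A block for the replicate number instead of the batch term called 2 members, both in PCs (*Atp2a2*, adjusted p = 0.0366, and *Atp2b2*, adjusted p = 0.0361) and 172 genes in PCs (1.75% of those tested). *Atp2a3* and *Slc8a1* had adjusted p of 0.0504 and 0.0525, and *Atp2b2* was lower in SCA1 in each of the 3 same-numbered pairs. Deviations of same-numbered mice correlated over genes at 0.67, 0.07 and 0.50 in PCs, the second under 0.1. In 6 of 13 labels, granule neurons among them, each pair was above 0.1, over all labels from 0.0407 to 0.867. The numbers were not taken to pair the mice, since the sources name nothing that they share and the pairs in PCs were not all above 0.1. For *Atp2a2* in PCs the adjusted p ran from 0.0366 to 0.999 over 15 alternatives on sums, with log2 fold changes of -0.81 to -0.55.

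The test on single nuclei, which takes nuclei and not mice as replicates, called 3 members in PCs (*Atp2a2*, *Atp2a3*, *Atp2b2*) beside 407 genes (1.9%), 1 in BG (*Atp2a2*, beside 1.64%), 1 in VA (*Atp2a2*, beside 0.722%) and 3 in OL (as in PCs, beside 0.858%). *Slc8a1* in PCs moved from -0.57 to -0.12 there. The count of genes in PCs was 66 with DESeq2, 8 with RLE factors, 223 with no filter, 1 where label and cluster agree and 0 to 6 with a mouse left out (6 without WT mouse 2, 2 without WT mouse 3). The cause was not tested. Library size only moved the median of all genes in PCs from 0.02 to 0.20, and relative to it *Atp2a2* was at -0.76, *Atp2a3* at -0.67, *Atp2b2* at -0.64, *Slc8a1* at -0.59 and *Atp2b1* at -0.11. *Atp2b1* in PCs turned to 0.0888 with library size only, to 0.0117 on nuclei and ran from -0.25 to 0.0712 with a mouse left out. *Slc8a3* in PCs turned to 0.15 on nuclei and ran from -0.58 to 0.13. *Atp2a2* in Chrm2 interneurons ran from -0.12 to 0.0285, and the PC minus granule difference of *Atp2a3* from -0.46 to 0.80, of *Atp2a2* from -0.74 to -0.071 and of *Atp2b2* from -0.52 to -0.18. *Atp2b3* in PCs ran from 0.025 to 0.88 and *Slc24a2* from 0.033 to 0.30. With 29 PC nuclei in the smallest mice and 3 mice a group, differences can be missed, and not only small ones. A log2 fold change of -0.73 (*Atp2a2* in PCs) had an adjusted p of 0.434 in edgeR's quasi-likelihood test.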

Other observations

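The polydendrocyte label held 12 nuclei from 5 mice and entered no test. Pooled over these, *Slc24a2* had 101 UMIs (464 CPM), *Atp2a2* 27 UMIs (124 CPM), *Slc8a1* 22 UMIs (101 CPM), *Atp2b1* 21 UMIs (96.5 CPM) and *Atp2b2* 16 UMIs (73.5 CPM). In microglia, pooled over 125 nuclei of 6 mice, *Slc8a1* had 1241 UMIs (2007 CPM) and *Atp2b1* 316 UMIs (511 CPM), against 8 UMIs of *Atp2a3* and 9 of *Atp2b4*.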
